A study of Mus musculus with 5 samples.

Results

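Of 46869 autosomal 1000 bp tiles measured in LSK cells, 2514 (5.364%) were intermediately methylated, with a wild-type level from 30 to 70%. Their level is the share of reads that kept C at each CpG, averaged over the CpGs of a tile with equal weight and then over the 3 wild-type libraries. The strands of each CpG were merged, a CpG needed at least 10 reads in all 5 libraries, and a tile needed at least 5 such CpGs. Chromosome 6 beyond 100 Mb was left out. Because the wild-type level chose these tiles, that level and its difference from the targeted libraries are given as descriptions without a test. Just outside the limits, tiles stood at 29.95%, 29.98%, 70.03% and 70.04%, and just inside at 30.01% (2 tiles) and 69.98% (2 tiles).

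The assay was enhanced reduced representation bisulfite sequencing of DNA, which reads CpG-rich MspI fragments after bisulfite treatment. The 5 libraries came from Lin- Sca1+ cKit+ (LSK) cells of C57BL/6 mouse bone marrow, the fraction that contains blood stem cells and early progenitors. The 3 wild-type libraries were set against 2 libraries, called targeted here, whose titles name a knockout (KO) while their genotype label is heterozygous (+/-). No treatment, age or sex is given for these libraries, and the labels leave unsaid whether replicate libraries are different animals. A p-value therefore reflects the spread among these libraries alone, which may be technical. No RNA was measured in these libraries, so the cell type was not checked against expression markers. Total coverage ran from 122015958 to 151634492 reads summed over strand entries, and the median coverage of a CpG in the intermediate tiles ran from 86 to 94 reads. Targeted library 1 stood apart from the other 4 libraries at these tiles, and values are given with and without it.

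Most mammalian CpGs are either methylated in nearly all cells or, in CpG islands, in nearly none. A level between these states can arise where one parental allele is methylated and the other is not, as at imprinted control regions, where cells of a population differ, or where a tile spans the edge between a methylated and an unmethylated stretch. The levels used here average each CpG over all its reads, so the pattern of single molecules is not seen. How the level is spread over neighbouring CpGs can show an edge. It does not tell a methylated parental allele from cells that differ.

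The promoters below are shown because they lie on intermediate tiles and carry the 3 kinds of locus described later: an imprinted start (Plagl1 and Zrsr1), a start of a testis or germ cell gene (Rbmxl2 and Rbm46), and a developmental start (Hoxa5). Each run is the 250 bases before the start site, 5′ to 3′ on the gene's strand, with every CG in capitals. Sequences are RefSeq's, from GRCm38.p6, and the mm9 positions come from the match of their CG spacing to the measured CpGs.
Plagl1, chr10:12810388-12810637, plus strand: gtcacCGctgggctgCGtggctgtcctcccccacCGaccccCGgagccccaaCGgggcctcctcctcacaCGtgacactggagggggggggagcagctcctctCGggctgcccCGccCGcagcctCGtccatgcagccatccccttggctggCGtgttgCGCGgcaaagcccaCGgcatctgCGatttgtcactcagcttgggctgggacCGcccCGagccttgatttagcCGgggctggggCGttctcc
Zrsr1, chr11:22871755-22872004, plus strand: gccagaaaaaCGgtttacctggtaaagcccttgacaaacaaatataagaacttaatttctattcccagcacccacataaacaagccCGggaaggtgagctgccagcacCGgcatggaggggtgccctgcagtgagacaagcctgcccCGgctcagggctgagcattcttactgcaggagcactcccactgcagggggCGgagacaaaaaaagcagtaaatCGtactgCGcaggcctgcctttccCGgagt
Rbmxl2, chr7:114352709-114352958, plus strand: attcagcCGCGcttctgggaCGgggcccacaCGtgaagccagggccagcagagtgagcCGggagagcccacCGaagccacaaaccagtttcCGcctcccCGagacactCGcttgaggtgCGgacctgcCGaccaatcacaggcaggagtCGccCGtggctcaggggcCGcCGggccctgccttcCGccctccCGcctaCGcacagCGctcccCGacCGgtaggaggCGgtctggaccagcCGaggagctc
Rbm46, chr3:82680406-82680655, minus strand: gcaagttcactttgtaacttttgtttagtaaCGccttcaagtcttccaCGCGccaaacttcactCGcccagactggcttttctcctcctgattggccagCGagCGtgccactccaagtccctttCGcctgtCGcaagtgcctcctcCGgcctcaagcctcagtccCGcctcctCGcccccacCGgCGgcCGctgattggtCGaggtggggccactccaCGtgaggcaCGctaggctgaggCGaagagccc
Hoxa5, chr6:52154587-52154836, minus strand: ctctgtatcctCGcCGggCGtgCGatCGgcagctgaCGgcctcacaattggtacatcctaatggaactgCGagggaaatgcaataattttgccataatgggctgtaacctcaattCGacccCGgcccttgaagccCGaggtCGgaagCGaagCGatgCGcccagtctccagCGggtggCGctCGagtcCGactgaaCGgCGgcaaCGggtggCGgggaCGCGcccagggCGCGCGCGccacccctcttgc
In the Plagl1 window 5 of 19 CG were measured in all libraries, with 57.4% methylation in targeted library 1, 38.4% in targeted library 2 and 17.6%, 24.5% and 33.9% in wild type. The Zrsr1 window held 6 measured CG of 8, and all 6 lay between 39.7 and 46.3% in the wild-type mean. The Rbmxl2 window held 16 of 23, with a median wild-type CpG level of 42.0%. In the Rbm46 window 9 of 18 CG were measured, with a median of 25.4%, and in the Hoxa5 window 8 of 28, with a median of 68.3%. The measured CpGs of these windows lie on the intermediate tiles themselves, so their partial methylation is no separate result. In wild type the window was lower than its tile at Plagl1 and Rbm46 and higher at Hoxa5. At Plagl1 the window was above its tile in both targeted libraries (tile 49.6 and 37.2%), with coverage down to 18 reads.

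The tiles between the extremes were few beside the other classes. Under 10% lay 21368 tiles (45.6%), over 90% lay 15778 (33.7%), from 10 to under 30% lay 1931 (4.12%), and over 70 to 90% lay 5278 (11.3%). Intermediate tiles made up between 3.95% (chromosome 16) and 6.44% (chromosome 4) of the tiles of a chromosome.

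**Figure D1:**
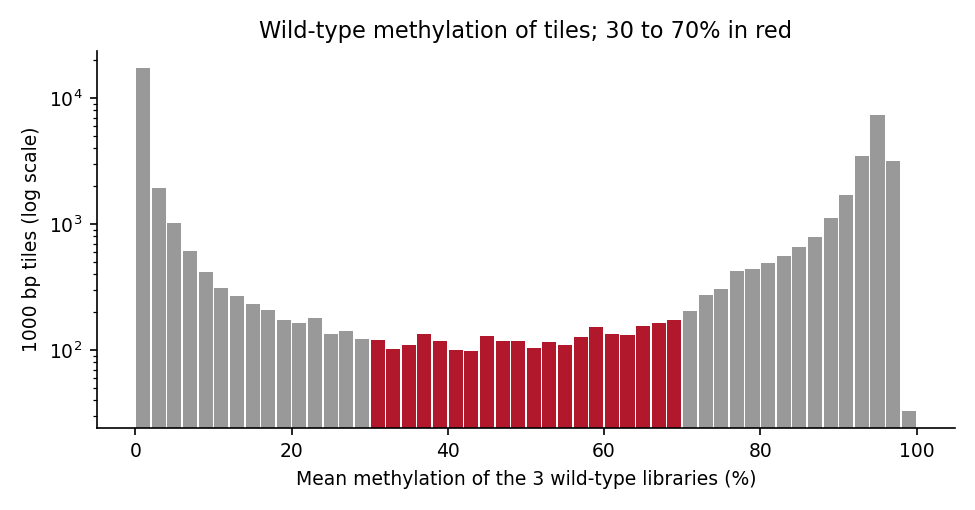
Number of 1000 bp tiles (y axis, log scale) by mean methylation of the 3 wild-type libraries in percent (x axis, bins of 2 points). The 2514 tiles from 30 to 70%, in red, form the valley between 21368 tiles under 10% and 15778 over 90%.

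The number of measured CpGs set the intermediate tiles apart from the unmethylated ones. They held a median of 7 CpGs (highest 117, with 21902 CpGs in all) against 8 over all tiles and 21 in tiles under 10%. The other classes were close to them, with 8 from 10 to under 30%, 6 over 70 to 90% and 6 over 90%. Of the 25782 tiles with 5 to 9 CpGs, 7.50% were intermediate. The share was 4.90% at 10 to 19 CpGs, 1.87% at 20 to 29, 0.915% at 30 to 49 and 0.402% (13 of 3231 tiles) at 50 or more. Over the same bins the share under 10% rose from 17.8 to 98.1%, so a CpG-rich intermediate tile was an uncommon object. The share over 90% fell as well, from 53.2 to 0.279%, so the fall is not particular to intermediate tiles. CpG-rich fragments are also the ones this assay covers best, and its limits on fragment size apply to all classes.

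**Figure D2:**
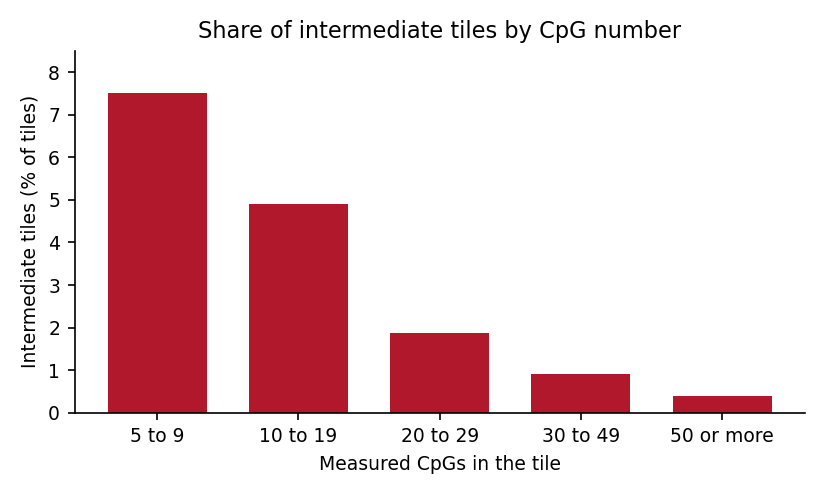
Share of tiles that were intermediate (y axis, percent of the tiles of each bin) by the number of measured CpGs in the tile (x axis). The share falls from 7.50% at 5 to 9 CpGs to 0.402% at 50 or more.

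A tile mean near the middle was made in different ways, which the wild-type levels of single CpGs separated. In 1325 tiles (52.7%), called uniform here, at least 75% of the CpGs themselves lay from 20 to 80%. In 226 tiles (8.99%), called split, under 25% did, and the tile was a sum of nearly methylated and nearly unmethylated CpGs. The other 963 (38.3%) were mixed. The median SD among the CpGs of a tile was 16.2 points in uniform, 28.95 in mixed and 42.9 in split tiles. In 203 of the 226 split tiles (89.8%) the CpGs under 20% and those over 80% lay on opposite sides of a single boundary. The libraries that did not choose the tiles showed the same structure in most of them: targeted library 2 put 81.4% of uniform, 81.6% of mixed and 85.0% of split tiles in the same class, and targeted library 1 put 70.2, 79.5 and 82.7%.

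Where a gene start could be placed nearby, boundaries mostly turned their unmethylated side to it. Over all intermediate tiles, 732 (29.1%) held CpGs under 20% and over 80% with 1 switch between them. The nearest low and high CpG on either side of the switch were a median of 218 bp apart (upper quartile 456 bp). Both lie in the same tile, so this distance could not reach 1000 bp. For 111 of the 732 tiles a start site could be placed within 2000 bp, and the low side was the nearer one in 99 (89.2%). For the others the orientation is not known. Only starts whose own CpGs were measured could be placed, so starts without such CpGs are not counted.

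Dazl, which encodes an RNA-binding protein of germ cells, had the opposite order. Its tile (chr17:50432001-50433000) held 73 CpGs, 36 of them under 20% and 31 over 80%. The 33 CpGs in the first 500 bp after the start had mean levels of 92.95 and 90.5% in targeted libraries 1 and 2, against 92.2, 92.3 and 92.9% in wild type. The 40 CpGs from 501 to 878 bp after it had 6.13, 5.07, 5.62, 5.65 and 5.29% in the same order. The start was methylated, the stretch behind it was not, and all 5 libraries had this step. The tile mean was 45.4, 43.7, 44.8, 44.8 and 44.9%, an intermediate value that hardly any of its CpGs had.

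Other split tiles with many CpGs were a tile of 79 CpGs whose nearest placed start was Foxc1, a forkhead transcription factor gene, 4985 bp away (chr13:31903001-31904000), and the Tram1l1 tile with 29 CpGs (chr3:124024001-124025000). The Foxc1 neighbour read 32.9 and 30.3% in the targeted libraries, against 32.95, 32.3 and 30.4% in wild type. Tram1l1 read 35.7 and 35.5% against 34.5, 33.7 and 34.5%. The tiles of the same kind that followed in CpG number, a tile of 33 CpGs near 2310011J03Rik (chr10:79776001-79777000; wild-type mean 45.4%) and one of 28 near Gm31536 (chr4:136390001-136391000; 37.6%), had 15 low and 14 high CpGs and 16 low and 9 high CpGs.

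Uniform tiles with many CpGs were the reverse case: nearly every one of a long series of neighbouring CpGs stood in the middle. Rbmxl2, a testis-expressed retrogene for an RNA-binding protein, had the intermediate tile with the most CpGs (chr7:114353001-114354000). Its 117 CpGs, 97.4% of them from 20 to 80%, gave 50.7 and 47.6% in targeted libraries 1 and 2, against 47.7, 46.8 and 49.04% in wild type, from 12654 to 14497 reads. The tile before it, with the 16 CpGs of the window printed above, was intermediate as well, at 44.5% ± 3.80 in wild type (SD, n = 3). Over the plotted CpGs around this start the mean level stayed in the middle in all 5 libraries. In the tile of 117 CpGs targeted library 1 was the highest and targeted library 2 lay among the wild-type libraries.

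A tile of 82 CpGs on chromosome 8 (chr8:91151001-91152000) had every CpG between 27.9 and 70.2% in the wild-type mean. Its nearest placed start, Gm35162, was 106480 bp away, so no gene is named for it. It read 61.2% in targeted library 1 and 41.3% in targeted library 2, above and below all wild-type libraries (48.3, 50.7 and 45.2%). A tile of 73 CpGs on chromosome 11 (chr11:102299001-102300000; nearest placed start Slc25a39, 30669 bp away) had 76.7% of its CpGs from 20 to 80% and read 38.3 and 31.6% against 30.2, 36.7 and 25.2%. Near Taf10, at 18648 bp (chr7:112911001-112912000), 32 CpGs read 45.4 and 44.0% against 47.3, 46.5 and 44.4%.

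Imprinted genes appeared on these tiles. From a list of 53 imprinted genes, 17 had a placed promoter on a measured tile, and 6 of the 17 (35.3%) had it on an intermediate tile: Plagl1, Zrsr1, Commd1, Igf2r, Gnas and Mkrn3. Over all genes with a placed promoter on a measured tile, 116 of 7793 (1.49%) did. From the list of 40 germ cell genes it was 2 of 12 (Dazl and Smc1b), and from the list of 64 blood genes 1 of 11 (Csf2ra, the alpha chain of the GM-CSF receptor). The wild-type level that chose the tiles also makes these counts, so they describe the tiles and were not tested. Commd1 and Zrsr1 were counted on a shared tile (chr11:22872001-22873000), so the 6 imprinted genes are not 6 separate loci.

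The Plagl1 tile (chr10:12810001-12811000) covers the start of a zinc finger transcription factor gene, shared with the noncoding RNA Hymai, that is expressed from the paternal allele. Its 43 CpGs read 49.6% in targeted library 1, 37.2% in targeted library 2, and 37.0, 36.6 and 35.9% in wild type. The wild-type libraries differed by an SD of 0.516 points there, targeted library 2 lay just above them and targeted library 1 well above. Zrsr1 is a retrogene for a splicing factor that sits inside an intron of Commd1 and is expressed from the paternal allele. Its main tile (chr11:22872001-22873000) had all 45 CpGs between 20.3 and 52.9%, with 47.9 and 36.8% in the targeted libraries against 41.5, 35.6 and 38.8%.

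Igf2r encodes the receptor that clears IGF2, and its tile (chr17:12962001-12963000, 32 CpGs) read 46.0 and 29.2% in the targeted libraries against 32.0, 32.9 and 34.6%. Mkrn3 encodes a RING finger protein, and its tile (chr7:69564001-69565000, 18 CpGs) was mixed, not uniform, with 52.7 and 46.2% against 43.0, 42.6 and 41.8%. Gnas encodes the stimulatory G protein alpha subunit, and its promoter tile (chr2:174109001-174110000, 8 CpGs) read 46.8 and 34.7% against 32.4, 34.1 and 37.0%. Over the 6 imprinted-list promoter tiles (2 of them at Zrsr1), targeted library 1 was above all wild-type libraries in 6, by 6.54 to 13.1 points over their mean. Targeted library 2 was above all of them in 2, below all in 2 and among them in 2. Over all intermediate tiles, targeted library 1 was above all wild-type libraries in 71.6% and targeted library 2 in 33.2%. Over all tiles tested the shares were 42.7 and 30.7%.

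**Figure D3:**
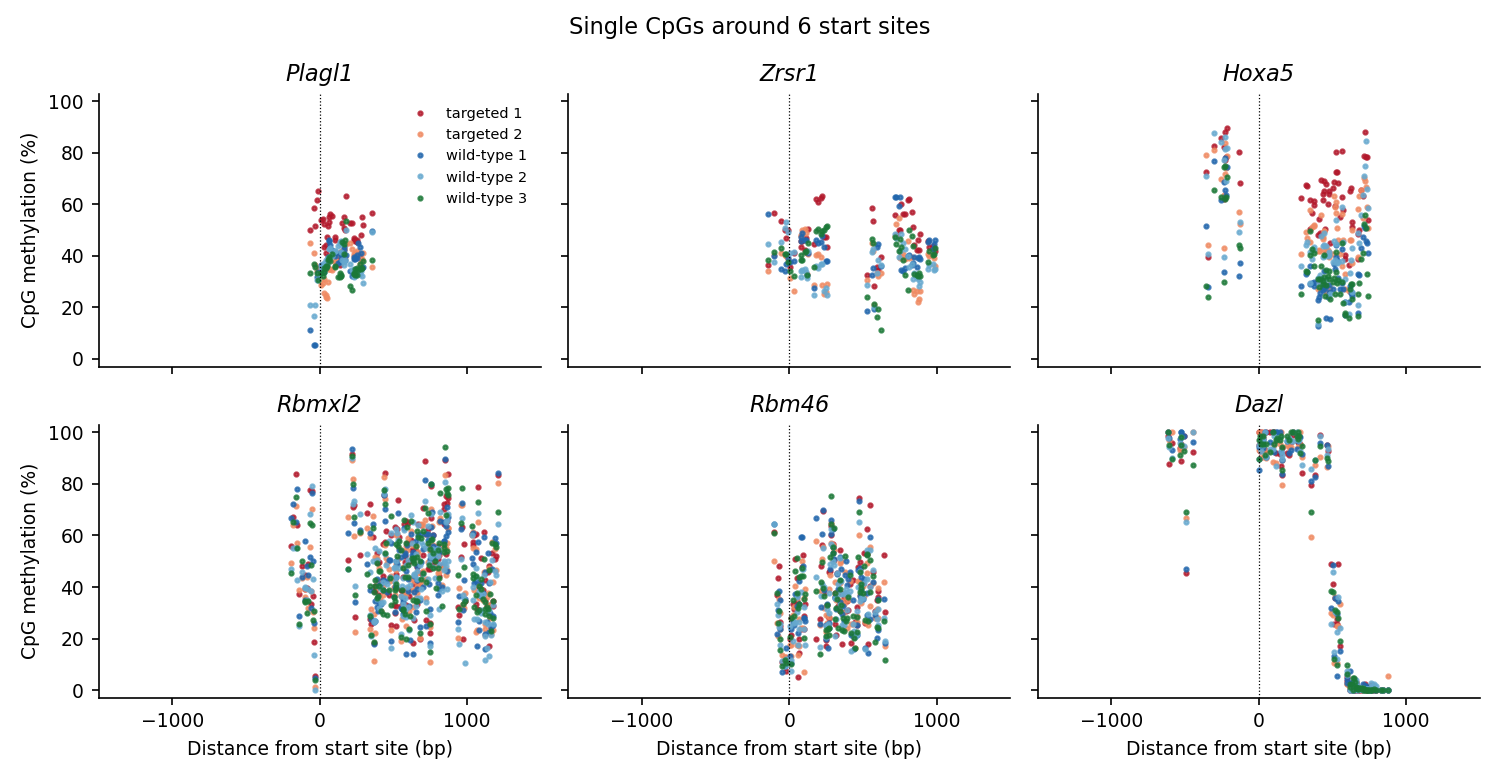
Methylation of single CpGs (y axis, percent) by distance from the start site in bp (x axis, positive along the gene) at 6 starts, with 1 point per CpG and library and the dotted line at the start. Dazl steps from over 90% to about 5 to 6% behind its start in every library, and nearly all CpGs of the others stay between the extremes. Targeted library 1 is the highest of the 5 at 54 of 64 CpGs of Hoxa5, 36 of 43 of Plagl1 and 29 of 51 of Zrsr1. It is the highest at 56 of 160 CpGs of Rbmxl2, 30 of 88 of Rbm46 and 18 of 82 of Dazl.

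Intermediate tiles seldom lay in long runs of measured tiles. For 1833 of the 2514 neither neighbouring tile was measured, so these could not have been part of a longer run here. Of the runs of adjacent intermediate tiles, 2371 were single tiles, 63 had 2 tiles, 4 had 3 and 1 had 5. The run of 5 (chr2:174122001-174127000) had its first tile centred 12679 bp from the nearest placed Gnas start, all 5 tiles were uniform, and their wild-type means ran from 39.0 to 57.9%. Targeted library 1 read 60.7, 67.8, 60.3, 58.7 and 61.9% along the run, above all wild-type libraries in 5 of 5 tiles. Targeted library 2 read 43.5, 53.9, 44.0, 37.5 and 35.5%, above all of them in 0 and below all in 3, so the targeted libraries did not move together here.

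Of the 4 runs of 3, 1 covered the placed Gnas start (chr2:174109001-174112000), with wild-type means of 34.5, 38.8 and 39.5%. Another covered the Rbmxl2 start (chr7:114352001-114355000), with 44.5, 47.8 and 38.5%, and another lay in the HoxA region (chr6:52125001-52128000; first tile centred 29086 bp from the nearest placed start, Hoxa5), with 31.96, 47.9 and 64.2%. A further single tile near Gnas (chr2:174153001-174154000, 24 CpGs) lay wholly between 27.1 and 42.7%, at 52.5 and 34.7% in the targeted libraries against 35.0, 31.8 and 34.4%. The last run of 3, near Blcap, the host gene of the imprinted Nnat (chr2:157385001-157388000), had wild-type means of 44.95, 33.5 and 51.02%. The tile with 50 CpGs nearest to the placed Grb10 start, 10923 bp away (chr11:11926001-11927000), read 49.9 and 37.5% against 38.9, 38.9 and 38.3%. Grb10, an adaptor of insulin receptor signalling, is imprinted, and all 50 CpGs of this tile lay from 29.4 to 67.4%.

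Few intermediate tiles had measured tiles beside them. For 1833 neither neighbouring 1000 bp tile was measured, for 614 only 1 was, and for 67 both were. Where 1 neighbour was measured it was low (wild-type level under 30%) in 356, high (over 70%) in 137 and intermediate in 121. Where both were, the commonest pair was 1 high and 1 low (25 of 67). Of all measured neighbours of intermediate tiles 20.1% were intermediate, against 8.39% for tiles from 10 to under 30%, 10.8% for tiles over 70 to 90%, 2.03% for tiles under 10% and 3.93% for tiles over 90%.

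Promoters were uncommon on these tiles. On the chromosomes of the promoter table, 113 of 2433 intermediate tiles (4.64%) overlapped a placed promoter, against 18.3% of all tiles. The share was 37.9% of tiles under 10%, 10.4% from 10 to under 30%, 1.23% over 70 to 90% and 0.575% over 90%. A promoter was placed only by at least 5 measured CpGs, which favours CpG-rich tiles, so overlap and distance also depend on CpG number. The median distance to the nearest placed start was 49128 bp, against 1456 bp for tiles under 10% and 69634 bp for tiles over 90%. Of the 113 tiles, 55 were uniform, 38 mixed and 20 split, and targeted library 1 was above all wild-type libraries in 81 (71.7%), the same as the 71.6% of all intermediate tiles. On the motif side, the hexamer TGCCGC, the site of the imprint factor ZFP57, lay on either strand in 26 of 124 promoters on intermediate tiles (21.0%) and in 24.7% of all placed promoters on measured tiles. GGCGGGA, the E2F6 motif of germ cell gene promoters, lay in 12.1% and 26.1%. Of the starts printed above, the 300-base promoter, which adds the first 50 bases of the transcript, held TGCCGC at Plagl1 and Hoxa5 and GGCGGGA at Plagl1, Rbmxl2 and Rbm46. A match describes the letters only.

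Several promoter tiles with many CpGs belonged to testis or germ cell genes outside the lists, named here after their values were seen. Rbm46, an RNA-binding protein gene of germ cells (chr3:82680001-82681000, 60 CpGs), read 34.8 and 33.8% in the targeted libraries against 36.8, 32.9 and 34.5%. Boll, a relative of Dazl (chr1:55419001-55420000, 38 CpGs), read 71.1 and 66.7% against 62.8, 63.2 and 64.9%, with no overlap. Henmt1, the methyltransferase of piRNAs (chr3:108743001-108744000, 17 CpGs), read 65.2 and 51.9% against 56.8, 57.8 and 45.7%. With Papolb, a testis poly(A) polymerase gene, Meioc, Sycp2l, Rbmxl2, Dazl and Smc1b, these made 11 tiles with a wild-type range from 32.2 to 65.0%. Targeted library 1 was above all wild-type libraries in 7 of the 11 (63.6%), and targeted library 2 in 3 (27.3%), against 71.6 and 33.2% of all intermediate tiles.

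Hoxa5, a homeobox transcription factor gene, had an intermediate promoter tile in which the libraries were far apart (chr6:52154001-52155000, 48 CpGs, 7196 to 10238 reads). It read 64.2% in targeted library 1 and 50.9% in targeted library 2, against 35.7, 46.4 and 37.2% in wild type. Both targeted libraries were above all 3 wild-type libraries, with 57.6% ± 9.45 (SD, n = 2) against 39.8% ± 5.75 (SD, n = 3). The log2 odds ratio was 1.10 (SE 0.338), with an adjusted p of 0.823 in edgeR's quasi-likelihood test over all tiles, so the difference did not pass. The tile was chosen after its values were seen. Of the wild-type libraries, library 2 was the closest to targeted library 2 on both sides of the start: the 12 CpGs before it read 68.4 and 66.5% in them, and the 24 CpGs in the first 500 bp after it 38.1 and 44.2%.

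Replicates of one group also differed more at intermediate tiles than elsewhere. The SD of the 3 wild-type libraries had a median of 2.77 points, against 0.116 in tiles under 10%, 1.70 from 10 to under 30%, 1.77 over 70 to 90% and 1.11 over 90%. The error of read counting alone had a median of 1.81 points at the depth of the intermediate tiles, against 0.0924, 1.20, 1.47 and 1.02 points in the other classes in that order. The median SD was 3.51 points in uniform, 2.36 in mixed and 1.46 in split tiles. An SD over 10 points occurred in 40 intermediate tiles (1.59%), in 6 tiles from 10 to under 30%, in 8 over 70 to 90%, and in 0 tiles under 10% or over 90%. The widest, singled out after the values were seen, was a tile of 5 CpGs on chromosome 12 (chr12:73183001-73184000) with 21.9, 62.7 and 43.4% in the wild-type libraries. It had between 54 and 217 reads, while a tile of 7 CpGs on chromosome 9 (chr9:121847001-121848000) had 287 to 520 reads and still read 63.5, 27.2 and 59.6%.

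The targeted libraries were then set against wild type at these tiles. The mean level was 57.8% in targeted library 1, 52.3% in targeted library 2, and 51.7, 50.9 and 51.6% in the wild-type libraries. Targeted library 1 alone was high, and targeted library 2 lay 0.876 points above the wild-type mean. The group difference was 3.66 points (55.1% ± 3.94, SD, n = 2, against 51.4% ± 0.396, SD, n = 3), 0.876 points without targeted library 1 and 6.45 points without targeted library 2. With the tiles chosen on 2 wild-type libraries and the third kept out, the kept-out library read 52.0, 50.8 and 51.8%. Targeted library 1 was then 6.13, 6.81 and 6.24 points higher than it, and targeted library 2 0.584, 1.21 and 0.624 points higher.

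Between 89.9 and 90.6% of such tiles lay from 30 to 70% in the kept-out wild-type library. For the 2514 tiles the share was 90.8% in targeted library 2 and 79.0% in targeted library 1, where 503 tiles passed 70% and 25 fell under 30%. The median absolute difference between libraries over these tiles was 3.01 to 3.36 points for pairs of wild-type libraries, 3.27 to 3.46 for targeted library 2 and a wild-type library, and 6.16 to 6.77 for targeted library 1 and a wild-type library. Targeted library 2 was thus about as far from wild type as wild-type libraries were from each other.

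Targeted library 1 was above all wild-type libraries in 1800 intermediate tiles (71.6%; 42.7% of all tiles) and below all in 112 (4.46%; 14.8% of all tiles). Targeted library 2 was above all in 834 (33.2%; 30.7% of all tiles) and below all in 480 (19.1%; 18.5% of all tiles), a share near the background. Targeted library 1 was over 20 points above the wild-type mean in 56 tiles and over 20 points below in 3, and targeted library 2 in 2 and 1. On the scale of log2 odds the median of targeted library 1 over wild type was 0.49 at intermediate tiles and 0.49 at tiles from 10 to under 30%, against 0.34 under 10%, 0.25 over 70 to 90% and 0.15 over 90%. For targeted library 2 these medians were 0.04, 0.04, 0.12, 0.01 and 0.06. These odds rest on reads summed over a tile with 1 added, so they also vary with depth and with how reads fall on CpGs. On that scale the shift of targeted library 1 was not larger at intermediate tiles than at those from 10 to under 30%. In points its median shift was 6.14 at intermediate tiles and 3.35 at those from 10 to under 30%.

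**Figure D4:**
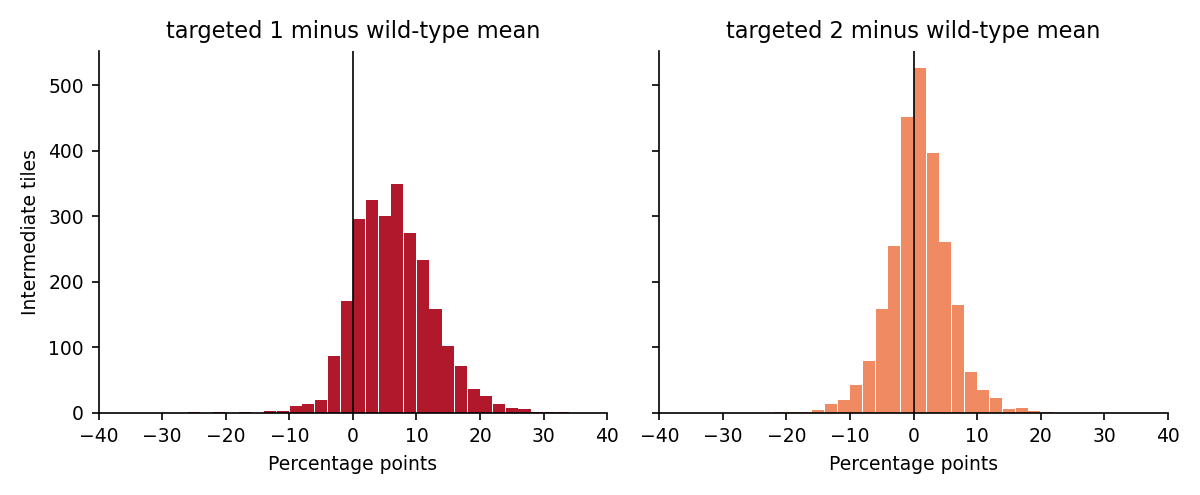
Number of intermediate tiles (y axis) by the difference from the wild-type mean in percentage points (x axis, bins of 2 points) for targeted library 1, left, and targeted library 2, right. The bulk of targeted library 1 lies to the right of 0, with a median of 6.14 points, and that of targeted library 2 lies around 0.816 points.

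Measured in points, with the CpGs of a tile weighted alike, the rise in targeted library 1 followed the inner structure of a tile. The log2 odds of reads summed over a tile, which weight CpGs by their reads, were close between the classes. In uniform tiles the mean of targeted library 1 was 8.17 points over wild type, in mixed tiles 5.16 and in split tiles 1.86. Targeted library 2 lay 1.04, 0.777 and 0.343 points over wild type in the same order. Uniform tiles read 59.3 and 52.1% in the targeted libraries against 51.4, 50.4 and 51.5%, and split tiles 51.1 and 49.6% against 49.5, 49.1 and 49.1%. In uniform tiles targeted library 1 was above all wild-type libraries in 76.1%, and in split tiles in 51.8%. Split tiles are made mostly of CpGs under 20% or over 80%, and the part of this in their smaller shift in points was not tested. The median log2 odds of targeted library 1 over wild type was 0.52 in uniform, 0.46 in mixed and 0.51 in split tiles. In split tiles such odds also depend on how reads fall on methylated and unmethylated CpGs, so 0.51 cannot be read as a shift of CpG levels. At Dazl the log2 odds ratio of the groups was 0.231, while the level difference was -0.285 points. Over single CpGs from 20 to 80% the mean shift of targeted library 1 was 8.70, 7.34 and 4.46 points (10685, 4311 and 199 CpGs). The classes were cut from wild-type CpG levels, so no test is given.

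**Figure D5:**
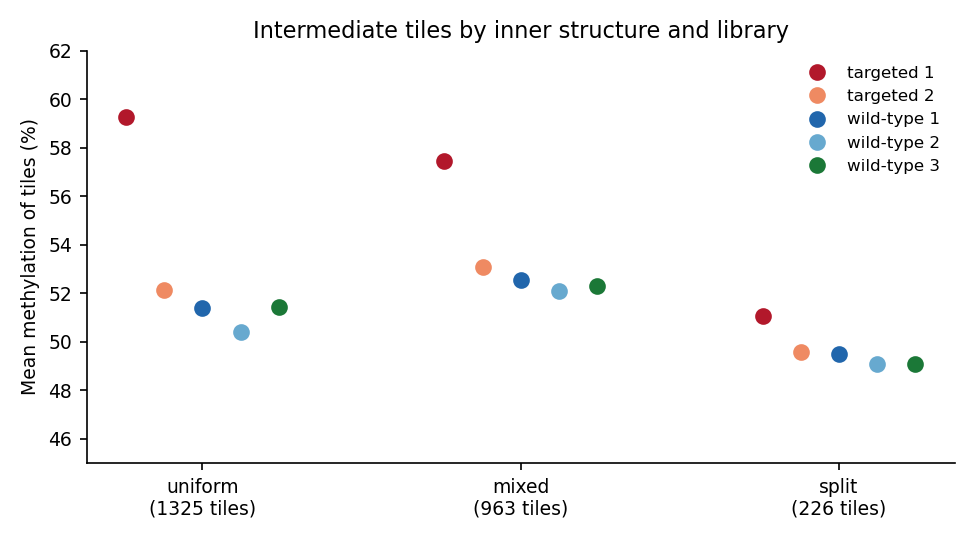
Mean methylation in percent (y axis, from 45 to 62) of the uniform, mixed and split intermediate tiles (x axis, number of tiles in brackets), with 1 point per library. Targeted library 1 stands 8.17 points above the wild-type mean in uniform tiles and 1.86 in split tiles, while targeted library 2 stays close to the wild-type libraries in each class.

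No tile passed the test of the 2 groups. Over the 46718 tiles tested with edgeR's quasi-likelihood test, 0 (0.0%) reached both an adjusted p under 0.05 and a gap of 10 points or more, and 0 of the 2514 intermediate tiles did. Limma also called 0. At an unadjusted p under 0.05, edgeR had 211 intermediate tiles higher (8.39%, against 5.13% of all tiles) and 7 lower (0.278%, against 0.908% of all tiles). Without targeted library 1 the counts were 31 higher (1.23%; 2.92% of all tiles) and 21 lower (0.835%; 1.15% of all tiles), and without targeted library 2 they were 662 higher (26.3%; 9.20% of all tiles) and 14 lower (0.557%; 1.10% of all tiles). In edgeR's test the excess of higher tiles was thus present only where targeted library 1 entered the fit. With all 5 libraries, limma had 85 intermediate tiles at an unadjusted p under 0.05 in either direction, against 2886 over all tiles. The same counts in edgeR's test were 218 and 2822. The larger share at intermediate tiles was thus not seen with limma. Both targeted libraries were above all wild-type libraries in 716 intermediate tiles (28.5%; 18.0% of all tiles) and below all in 61 (2.43%; 5.34% of all tiles). The median log2 odds ratio of the groups was 0.27 at intermediate tiles and 0.17 over all tiles tested.

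The 5 intermediate tiles with the smallest unadjusted p each had both targeted libraries outside the wild-type range. Adjacent tiles on chromosome 19 (chr19:5756001-5758000; nearest placed start Ehbp1l1, 30183 bp away) were the farthest above. The first, with 16 CpGs, read 84.0 and 70.9% against 55.1, 52.8 and 44.7%, and the second, with 20 CpGs, 77.8 and 66.1% against 45.4, 49.4 and 44.1%. Both targeted libraries were high there, and the groups did not overlap. A tile on chromosome 2 (chr2:162773001-162774000; nearest placed start Srsf6, 16256 bp away) read 71.2 and 66.8% against 54.8, 42.3 and 42.9%.

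A tile on chromosome 1 (chr1:39418001-39419000; nearest placed start Rpl31, 6196 bp away) read 80.8 and 83.4% against 61.4, 67.6 and 67.6%. One tile was lower in the targeted libraries, on chromosome 7 (chr7:148155001-148156000; nearest placed start Psmd13, 87207 bp away), with 25.4 and 26.6% against 45.6, 42.5 and 48.2%. Its 5 CpGs had 412 to 637 reads per library, and the 2 targeted libraries were alike in it. The adjusted p of edgeR's quasi-likelihood test was 0.602 for each of these 5 tiles, so none passed. Their differences between group means were 26.6 and 25.7 points on chromosome 19, 22.3 on chromosome 2, 16.6 on chromosome 1 and -19.4 on chromosome 7.

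The test called 1 intermediate tile once targeted library 2 was left out (chr16:4718001-4719000; nearest placed start Dnaja3, 34430 bp away; 8 CpGs). It read 5.51% in targeted library 1, 28.97% in targeted library 2 and 26.95, 31.3 and 32.8% in wild type. Targeted library 1 alone was low, and with both libraries the adjusted p of edgeR's test was 0.823, against 0.0416 without targeted library 2, where the lone targeted library was assumed to vary like wild type.

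The spread of CpG levels comes from the values that chose the tiles and is given as a description. The median SD of CpG levels within a tile was 21.6 and 22.0 points in the targeted libraries and 22.2, 22.2 and 21.7 in wild type, a difference of -0.245. Strand differences and coverage above the minimum were not used in the choice of tiles, and in both the groups overlapped. The median difference between the strands of a CpG was 6.85 and 5.80 points against 6.38, 5.88 and 7.11, a difference of -0.134 (exact permutation test, two-sided, p = 0.8). The coverage of a CpG relative to all tiles was 0.956 and 0.721 against 0.717, 0.736 and 0.817 (exact permutation test, two-sided, p = 0.6). With 2 libraries against 3 the smallest possible p is 0.1. Targeted library 1 had the highest relative coverage and the fewest total reads of the 5 libraries, and the part of either in its higher levels was not tested.

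The CpGs of the intermediate tiles also moved up as a whole in targeted library 1. From 20 to 80% lay 64.9% of them in targeted library 1, 67.6% in targeted library 2 and 67.9, 68.5 and 68.3% in the wild-type libraries. From 80% up, targeted library 1 had 12.6% at 80 to 90% and 11.5% at 90 to 100%, against 8.49 to 8.89% and 7.995 to 8.58% in wild type. Under 10% it had 6.78%, against 8.10 to 8.49% in wild type. Targeted library 2 had 9.22% and 8.89% in the 2 upper ranges and 7.86% under 10%.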

How the data were processed

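Methylation was measured in 2 targeted and 3 wild-type LSK libraries, grouped by their titles. The authors' deposited tables give, per the file headers, each CpG by strand with its coverage as a read count and the percent of reads with C and with T. Per the submitters' processing notes, Bismark was used with the mouse build mm9 (NCBIM37), with no Bismark version given in the sources used here. The lowest deposited coverage count is 10. The name of the targeted gene is not given. The tiles and gene lists were chosen with earlier results of these data known.

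Read counts were recovered as percent times coverage (99.97% of entries within 0.01 of a whole read) and summed per tile. Counts of methylated and unmethylated reads were tested with edgeR 4.0.16 (quasi-likelihood, a factor per library, common dispersion, Benjamini-Hochberg over 46718 tiles; 151 tiles were not tested), with limma 3.58.1 as an alternative. The protocol names no molecular identifiers, so the counting error given is a lower estimate. Scripts were tested on simulated data. Single values per library were compared by exact permutation over 10 splits. The spread of CpG levels within tiles was to be tested so too, but rests on the values that chose the tiles and is given without a test.

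No mm9 annotation was used. RefSeq promoters (300 bases, GRCm38.p6) were placed on mm9 by matching the spacing of at least 5 CG to measured CpGs, with a single best position on the chromosome and a shift shared with the nearest promoter placed by 8 or more CpGs. Of 31396 autosomal promoters 9026 (8010 genes) were placed. Before the shift was required, it was shared by 99.4% of promoters matched by 8 or more CpGs, 83.2% by 6 to 7 and 42.4% by 5. Promoters on chromosome 18 were not used here. Exons, introns, repeats and CpG islands were not analysed here.

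Named tiles are the 5 with the smallest p, the 5 with most CpGs, the 5 with 15 or more CpGs and the highest share from 20 to 80%, the 5 split tiles with most CpGs, the 3 longest runs (4 tied at 3 tiles, so all 5 runs are given), the listed genes' promoters and the tiles at the limits; others are said to be chosen after their values were seen. Alternatives were other coverage limits, tile sizes, CpG minimums and level ranges, CpGs weighted by reads, leaving out each library, a replicate block, limma and other minimum differences.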

Additional observations from a re-analysis of the deposited data

How the results depend on the processing

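The number of intermediate tiles was 6703 with 3 or more CpGs per tile, 580 with 10 or more, 1172 from 40 to 60% and 4905 from 20 to 80%. The level difference was 3.20 points with 2000 bp tiles and 2.95 from 20 to 80%, and ran from 0.876 (without targeted library 1) to 6.45 points (without targeted library 2) as each library was left out. The difference in the share of CpGs from 20 to 80% was -2.01 points, -1.32 with 2000 bp tiles, -1.36 with 10 or more CpGs, -2.32 from 40 to 60% and -1.40 from 20 to 80%, and ran from -3.37 (without targeted library 2) to -0.658 (without targeted library 1). The strand difference changed sign to 0.0701 with 10 or more CpGs and 0.0829 from 40 to 60%, and ran from -0.662 without targeted library 1 up to 0.394 without targeted library 2 and 0.212 without wild-type library 3; relative coverage ran from -0.0358, with the sign changed, without targeted library 1 to 0.199 without targeted library 2. The cause was not tested.

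Called tiles numbered 1 with 500 bp tiles and 2 with no minimum difference, and 0 to 1 as each library was left out (1 without targeted library 2, and 1 without wild-type library 3), against 0. Intermediate tiles called were 0 to 1 on leaving out a library and 0 under the 13 other alternatives. With the replicate number as a block 2 tiles were called, none of them intermediate. Deviations of same-numbered libraries correlated at -0.003 and 0.028 over all tiles and at -0.055 and -0.067 over the intermediate tiles. With 2 targeted libraries the deviations of 1 mirror those of the other, so these values cannot tell whether the numbers pair the libraries. The 5 tiles of smallest p kept their direction under the 9 alternatives run on them. They were chosen for their p in these same libraries, so the kept direction is no separate support. Depth limits a tile by counting error of 1.81 points (median), below the median wild-type SD of 2.77.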
